A study of Homo sapiens with 8 samples.

Results

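The 10 transcripts described here encode the CDC2-like kinases CLK1, CLK2, CLK3 and CLK4, the splicing factors RBM5, RBM39, LUC7L and LUC7L3, the O-GlcNAc transferase OGT and the methionine adenosyltransferase MAT2A. They were chosen by gene symbol as mRNAs known for introns that are retained in the nucleus, and each symbol matched 1 of the 60664 rows of the count tables. The choice was made with earlier results of these data known, so counts of members below describe these genes and are no independent test. All 10 passed the filter on low counts in both compartments.

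APEX2 is an ascorbate peroxidase that marks molecules around it with biotin, and RNA so marked in HEK293T cells was bound to streptavidin beads for sequencing. HEK293T is a transformed line from human embryonic kidney, and every library came from cells that expressed APEX2, placed either in the nucleus (NLS) or on the outer membrane of mitochondria (OMM). The 4 groups were labelled NLS, unlabelled NLS control, labelled OMM and unlabelled OMM control, with 2 libraries each; the labels name no labelling reagent, time or clone, and the series text and the sample labels differ on how captured RNA was released. NLS libraries were made with a stranded total RNA kit and OMM libraries with a stranded mRNA kit. The OMM sample labels name Trizol, and the NLS sample labels name Ribominus instead. Compartment, kit, RNA selection and what these labels name therefore cannot be told apart, and levels were compared only within a compartment.

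Introns that are spliced late leave an otherwise finished, polyadenylated transcript in the nucleus, where it is held until the intron is removed or the transcript is degraded. Such introns are called detained introns. CLK kinases phosphorylate SR proteins, the serine- and arginine-rich splicing factors, and CLK1 and CLK4 mRNAs are well-known carriers of detained introns. OGT and MAT2A are known for introns whose removal responds to the cell's O-GlcNAc level and to its supply of S-adenosylmethionine, the product of MAT2A.

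NLS libraries held 8039176 to 21096586 counts and OMM libraries 34705126 to 52421161. Replicates spread far more at OMM, where the biological coefficient of variation over all tested genes was 0.958, against 0.166 at NLS. Whether the libraries of a group stem from different cultures is not stated, so each p-value reflects library-to-library spread alone, and that may be technical. All 7 HEK293 markers examined had counts in every group, though PAX2 and LHX1 were at 0 in 1 library of each OMM group. Their summed level was 980 to 1024 CPM (counts scaled to a common library total) in NLS controls and 475 to 481 CPM in labelled NLS libraries, and 603 to 713 and 746 to 819 CPM at OMM. At NLS 5 of the 7 were called lower. The summed level of 11 markers of other cell types was at most 26.5 CPM in any library, most of it COL1A1 at OMM. The part of these markers in the results below was not tested.

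The introns are shown first because they bear on what a gene count holds. In GENCODE 29 (GRCh38), 9 of the 10 genes have transcripts of the retained-intron class. In these, intron sequence of a coding transcript is annotated as exon, so reads inside it can be counted for the gene. CLK2 has no transcript of that class, but its introns 4, 10 and 11 lie whole inside another annotated transcript. Among the CLK genes, intron 4 of the principal coding transcript lies whole inside another annotated transcript in all 4 paralogs, and intron 3 in CLK1, CLK3 and CLK4. The exon between them, exon 4, has 91 bases in CLK1 and CLK4 and 97 in CLK3. The junctions are given 5′ to 3′ from GENCODE transcripts, with 10 exon bases in lower case and 10 (donor) or 20 (acceptor) intron bases in capitals.
CLK1 intron 3 donor: ttcacatgggGTATGAACGT
CLK4 intron 3 donor: gtcacgttcgGTATGATTGG
CLK3 intron 3 donor: cgcctcctcgGTGAGTGGTA
CLK1 intron 4 donor: agtgcaagatGTATAGAATA
CLK4 intron 4 donor: agagcaagatGTATAGAATA
CLK2 intron 4 donor: caagagcgatGTACAAGCCA
CLK3 intron 4 donor: caagagcgatGTACAGCCAC
CLK1 intron 4 acceptor: GATTTATTTCTCTCTTTTAGatgaaattgt
CLK4 intron 4 acceptor: TTTTTCCCTCCTCACTCTAGatgaaatcgt
CLK2 intron 4 acceptor: CCTGCTCTCTTTCATTTCAGatgaaatcgt
CLK3 intron 4 acceptor: CAATTTCTTTTCTCTCCTAGatgagattgt
OGT intron 4 donor: agaagccaagGTAGGTGTTT
OGT intron 4 acceptor: TTTCATTAACCCCTCCTAAGgcatgttatt

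Intron 4 has 378 bases in CLK1 (chr2:200859747-200860124, minus strand), 395 in CLK4 (chr5:178616949-178617343, minus strand), 348 in CLK2 (chr1:155268360-155268707, minus strand) and 277 in CLK3 (chr15:74622217-74622493, plus strand). Position by position, its donor window was identical at 19 of 20 bases between CLK1 and CLK4 and at 16 of 20 between CLK2 and CLK3, but at 9 of 20 between CLK1 and CLK2. The acceptor windows pair differently: CLK1 and CLK3 were identical at 22 of 30 bases, CLK1 and CLK4 at 18 of 30 and CLK2 and CLK3 at 17 of 30. At intron 3 the CLK1 and CLK4 donor windows were identical at 13 of 20 bases and those of CLK1 and CLK3 at 5 of 20. All 4 intron 4 donors carry GATGTA on the sense strand across the junction, the last 3 exon and the first 3 intron bases. These letters were chosen after the sequences were seen. Of the 25 introns of the 10 genes that lie whole inside any other annotated transcript, only those 4 were found to carry them. The donor of RBM5 intron 20 could not be read. Among 10862 introns of protein-coding genes that lie whole inside a retained-intron transcript, 25 (0.23%) carry them. That set holds the introns of CLK1, CLK3 and CLK4 but leaves out that of CLK2. As the letters come from these 4 related genes, the counts are no test of enrichment. OGT intron 4 (chrX:71544636-71547906, plus strand) has 3271 bases and is the only intron of its principal transcript that a retained-intron transcript holds whole.

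The kinase genes lie apart in the genome, with CLK1 (ENSG00000013441) at chr2:200853009-200864744, CLK2 (ENSG00000176444) at chr1:155262868-155278491, CLK3 (ENSG00000179335) at chr15:74598500-74645414 and CLK4 (ENSG00000113240) at chr5:178602664-178630615. The splicing factor genes are RBM5 (ENSG00000003756) at chr3:50088908-50119021, RBM39 (ENSG00000131051) at chr20:35701347-35742312, LUC7L (ENSG00000007392) at chr16:188969-229463 and LUC7L3 (ENSG00000108848) at chr17:50719544-50756213. The enzyme genes are OGT (ENSG00000147162) at chrX:71533083-71575897 and MAT2A (ENSG00000168906) at chr2:85539165-85545280.

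In the nucleus all 10 transcripts were higher in both labelled libraries than in either control library, and 8 passed the test: CLK1, CLK2, CLK3, CLK4, RBM5, OGT, MAT2A and LUC7L. The rises ran from 1.30-fold for MAT2A to 3.01-fold for RBM5. RBM39 and LUC7L3 did not pass. Of all 20858 genes tested at NLS, 28.8% were called higher and 28.5% lower; of the 13856 protein-coding genes tested, 19.4% were higher and 39.8% lower. Labelled libraries lay above both controls, without overlap, for 45.1% of all tested genes. The median log2 fold change was 0.67 over the 10 transcripts, 0.14 over all tested genes and -0.26 over protein-coding genes. In bulk libraries, how many cells carry a transcript and how much of it each cell holds cannot be told apart.

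**Figure D1:**
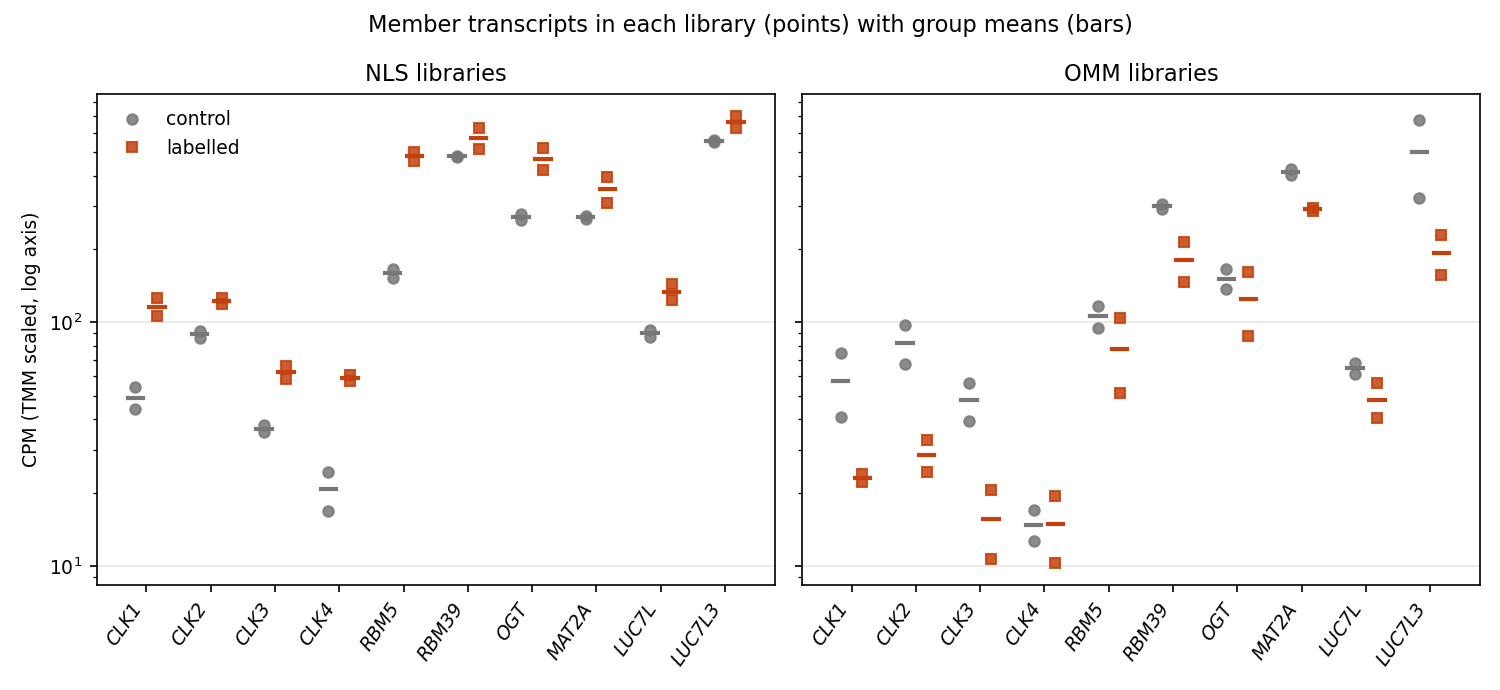
TMM-scaled CPM (log axis) of the 10 transcripts in the NLS libraries (left) and OMM libraries (right); points are single libraries and bars the mean of the 2 libraries of a group. At NLS every labelled point lies above both controls, whereas at OMM 7 of the 10 transcripts have both labelled points below both controls.

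CLK1 stood at 43.9 and 54.3 CPM in the NLS controls and at 106 and 126 CPM in the labelled libraries. The group means were 49.1 ± 7.36 and 116 ± 14.5 CPM (SD, 2 libraries each). CLK1 rose by 1.24 ± 0.14 on the log2 scale (± SE here and below; edgeR adjusted p = 0.00021). CLK4, its closest paralog, was at 24.4 and 16.8 CPM in controls and 57.4 and 60.5 CPM in labelled libraries. The control libraries differ more from each other than the labelled ones, but the groups lie far apart. CLK4 rose by a log2 fold change of 1.52 ± 0.19 (edgeR adjusted p = 0.000308).

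CLK2 and CLK3 rose less. CLK3 was at 35.3 and 37.9 CPM in the controls and 66.3 and 58.4 CPM in labelled libraries, a log2 fold change of 0.77 ± 0.13 (edgeR adjusted p = 0.00142). CLK2, the most abundant CLK transcript per kilobase of merged exons, was at 85.9 and 92.4 CPM in controls and 119 and 126 CPM in labelled libraries. Its groups do not overlap although the change is small, with a log2 fold change of 0.46 ± 0.10 (edgeR adjusted p = 0.00578).

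RBM5, an RNA-binding regulator of alternative splicing, had the largest rise of the 10. It was at 152 and 166 CPM in the NLS controls and at 461 and 498 CPM in labelled libraries. Both labelled values are close to each other and well above both controls, and the log2 fold change was 1.59 ± 0.10 (edgeR adjusted p = 2e-05). Merged exons of RBM5 share 9.71% of their bases with the antisense RBM5-AS1, 7.73% with the antisense SEMA3F-AS1 and 4.4% with RBM6 on the same strand. The strand setting of the authors' counting is not given in the sources used here, so reads in the antisense overlaps are uncertain. Reads in the overlap with RBM6 are uncertain under any strand setting.

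RBM39, a splicing coactivator, was at 479 and 481 CPM in controls and at 515 and 625 CPM in labelled libraries. The labelled libraries differ more from each other than the lower one does from the controls. Its log2 fold change of 0.25 ± 0.11 did not pass (edgeR adjusted p = 0.0987), but did with DESeq2 (adjusted p = 0.0209), with library size alone (adjusted p = 0.001) and without labelled library 1 (0.40, adjusted p = 0.015).

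LUC7L and LUC7L3 are human relatives of yeast Luc7, a protein of the U1 snRNP that takes part in choosing 5′ splice sites. LUC7L was at 86.8 and 93.3 CPM in controls and 123 and 143 CPM in labelled libraries, a log2 fold change of 0.56 ± 0.11 (edgeR adjusted p = 0.00343). LUC7L3 was at 548 and 558 CPM in controls and 627 and 704 CPM in labelled libraries. Its groups do not overlap, but the log2 fold change of 0.27 ± 0.10 did not pass (edgeR adjusted p = 0.0532; 0.00418 with DESeq2, 0.0366 with RLE factors, 0.0449 without the filter on low counts, 0.000469 with library size alone and 0.0241 without labelled library 1).

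OGT, the enzyme that adds O-linked N-acetylglucosamine to nuclear and cytosolic proteins, was at 279 and 262 CPM in NLS controls and at 421 and 519 CPM in labelled libraries. It rose by a log2 fold change of 0.80 ± 0.12 (edgeR adjusted p = 0.000825). MAT2A, which makes S-adenosylmethionine, was at 273 and 266 CPM in controls and 308 and 395 CPM in labelled libraries. The labelled values are spread, and the log2 fold change of 0.38 ± 0.13 (edgeR adjusted p = 0.0314) rests on labelled library 3: without it the value was 0.23 (adjusted p = 0.166), and without labelled library 1 it was 0.58. Merged exons of MAT2A share 12.4% of their bases with GGCX on the other strand, so its reads are also uncertain there. Smaller overlaps were present on the same strand for CLK4 (2.03%, RN7SKP70) and LUC7L3 (2.81%, AC005921.3). On the other strand CLK3 overlaps EDC3 (3.43%), AC100835.2 (2.34%) and AC100835.1 (0.88%).

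In the authors' deposited table, which came from DESeq2, all 10 log2 fold changes at NLS were positive and all 10 adjusted p-values were under 0.05. Of all genes given a DESeq2 adjusted p, 22.1% were higher. The members ran from 0.29 for RBM39 (adjusted p = 0.0209) to 1.64 for RBM5 (adjusted p = 2.66e-53).

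At the outer mitochondrial membrane none of the 10 transcripts passed the edgeR test, where 0.139% of 14438 tested genes were called higher and 0.0554% lower. On simulated OMM counts this test recovered 0 of 94 genes changed by a log2 of 1 and 27 of 96 changed by 2. The changes were planted in few genes, drawn at random whatever their level. These shares are therefore not the test's power for the 10 transcripts. Log2 fold changes of 9 of the 10 were below 0, against 50.1% of all tested genes, with a median of -0.62 against 0.00. In 7 of the 10 both labelled libraries lay below both controls, as for 22.5% of tested genes. At an unadjusted p under 0.05 there were 6 of the 10, all lower, against 4.62% of tested genes. With DESeq2, which called 5.7% of genes lower, 5 of the 10 were lower: CLK1, CLK2, CLK3, RBM39 and MAT2A.

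CLK1 was at 40.7 and 74.5 CPM in the OMM controls and at 23.8 and 22.2 CPM in the labelled libraries, a log2 fold change of -1.32 ± 0.47 (edgeR adjusted p = 0.362; 0.016 in the authors' deposited table); without control library 4 it was -0.82. CLK2 was at 67.6 and 97.4 CPM in controls and 33.0 and 24.3 CPM in labelled libraries (-1.52 ± 0.41, edgeR adjusted p = 0.214; 0.000321 in the authors' deposited table). CLK3 was at 39.4 and 56.2 CPM in controls and 10.7 and 20.5 CPM in labelled libraries (-1.62 ± 0.54, edgeR adjusted p = 0.325; 0.00831 in the authors' deposited table). For these 3 kinases the groups do not overlap, though the control libraries themselves differ by a wide margin. The labelled CLK3 libraries also differ widely. The CLK3 value was -1.22 without labelled library 2 and -2.16 without labelled library 3. CLK4 was at 16.9 and 12.6 CPM in controls and 19.4 and 10.3 CPM in labelled libraries, so the groups overlap fully. Its log2 fold change was 0.01 ± 0.77 (edgeR adjusted p = 0.999).

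Of the splicing factors, LUC7L3 had the widest gap at OMM, with 677 and 323 CPM in controls and 156 and 228 CPM in labelled libraries. The log2 fold change was -1.38 ± 0.36 (edgeR adjusted p = 0.21). Control library 3 lies well above control library 4 here. The value was -0.75 (adjusted p = 0.254) without control library 3, and it passed without control library 4 (-1.81, adjusted p = 2.52e-07), without labelled library 2 (-1.13, adjusted p = 0.0165) and without labelled library 3 (-1.67, adjusted p = 0.0364). RBM39 was at 293 and 307 CPM in controls and 146 and 214 CPM in labelled libraries (-0.74 ± 0.25, edgeR adjusted p = 0.331; 0.012 in the authors' deposited table), and at -0.48 without labelled library 2. LUC7L was at 68.3 and 61.5 against 40.3 and 56.1 CPM (-0.43 ± 0.38), and at -0.20 without labelled library 2 and -0.68 without labelled library 3. RBM5 was at 117 and 95.2 CPM in controls and 104 and 51.3 CPM in labelled libraries, with overlapping groups (-0.45 ± 0.39); the value was -1.04 without labelled library 2, -0.02 without labelled library 3 and -0.29 without control library 3.

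MAT2A was the tightest of the 10 at OMM, at 403 and 424 CPM in controls and 294 and 287 CPM in labelled libraries. Both pairs of replicates lie close together and apart from each other, with a log2 fold change of -0.51 ± 0.19 (edgeR adjusted p = 0.384; 0.00639 in the authors' deposited table). OGT was at 137 and 165 CPM in controls and 88.2 and 161 CPM in labelled libraries. These overlap, and the log2 fold change of -0.28 ± 0.33 turned to 0.10 without labelled library 2.

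**Figure D2:**
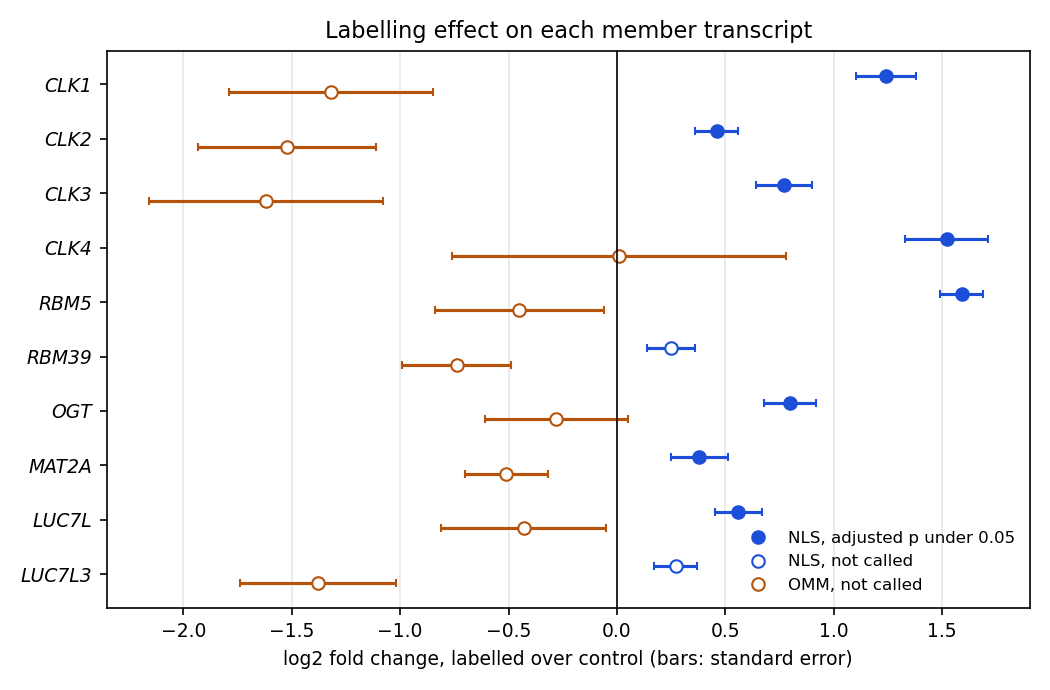
Log2 fold change of labelled over control libraries for each transcript at NLS (blue) and OMM (brown), with standard errors; filled points passed the edgeR test. All NLS estimates lie above 0, and 9 of the 10 OMM estimates lie below 0 with wider errors.

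The labelling effect itself was compared between the compartments through an interaction term fitted over all 8 libraries together. This fit gives each gene a single spread for both compartments, although OMM replicates spread more: the SE of the difference was below the SE at OMM alone for CLK1 (0.43 against 0.47), CLK2 (0.34 against 0.41), CLK3 (0.50 against 0.54), CLK4 (0.60 against 0.77) and LUC7L (0.29 against 0.38), so these p-values may be too small. The effect at NLS exceeded that at OMM in all 10 transcripts (52.1% of all tested genes), by a median log2 difference of 1.55, and passed for 5: CLK1 (2.54 ± 0.43, edgeR adjusted p = 0.0199), CLK2 (1.95 ± 0.34, adjusted p = 0.0215), CLK3 (2.36 ± 0.50, adjusted p = 0.0383), RBM5 (2.01 ± 0.46, adjusted p = 0.0474) and MAT2A (0.87 ± 0.20, adjusted p = 0.0479). Of 23178 genes tested, 1.41% had a larger effect at NLS in this test, and 6.73% a larger effect at OMM; that split was 326 to 1561 genes, and 381 to 584 with library size alone. DESeq2 called all 10, and 12.3% of genes. CLK4 had a difference of 1.48 ± 0.60 (adjusted p = 0.204), LUC7L3 1.63 ± 0.50, OGT 1.05 ± 0.39, LUC7L 0.97 ± 0.29 and RBM39 0.96 ± 0.27, none of which passed. Leaving out any of the 4 NLS libraries left 0 of the 10 called, but few genes of any kind passed in those fits: 0 without either control library, 28 higher and 445 lower without labelled library 1, and 15 and 290 without labelled library 3. The members' median difference was 1.48 to 1.74 there, and that of CLK1 2.43 to 2.74. Without OMM control library 3 or 4 there were 3 each, and without OMM labelled library 2 there were 4.

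A ratio of 2 transcripts within a library does not depend on how libraries are scaled. With 2 libraries against 2 the exact two-sided permutation p cannot go below 0.333, so the 18 comparisons (9 pairs in 2 compartments; smallest adjusted p = 0.5) are given as values. At NLS the log2 ratio of RBM5 to RBM39, per kilobase of merged exons, was -1.45 and -1.33 in controls and 0.04 and -0.12 in labelled libraries, a shift of 1.35 (pooled SD 0.10). The CLK1 to CLK2 ratio was -1.46 and -1.26 in controls and -0.66 and -0.49 in labelled libraries, a shift of 0.79 (pooled SD 0.13), and that of CLK4 to CLK2 shifted by 1.08 (pooled SD 0.33). In each of these 3 ratios the labelled libraries lie above both controls. The CLK1 to CLK4 ratio overlapped between groups, with 1.46 and 2.31 in controls and 1.50 and 1.68 in labelled libraries. Other shifts without overlap were those of CLK4 to CLK3 (0.77, pooled SD 0.35), CLK1 to CLK3 (0.48, pooled SD 0.24), OGT to MAT2A (0.42, pooled SD 0.04) and LUC7L to LUC7L3 (0.30, pooled SD 0.05). The ratio of CLK2 to CLK3 was lower in both labelled libraries, with a shift of -0.31 (pooled SD 0.14).

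At OMM the ratios of CLK4 to CLK2 and to CLK3 were higher in both labelled libraries than in either control. The log2 ratio of CLK4 to CLK2 was -3.11 and -4.06 in controls and -1.88 and -2.36 in labelled libraries, a shift of 1.47 (pooled SD 0.53). That of CLK4 to CLK3 shifted by 1.62 (pooled SD 1.04), with 1 labelled library at 2.23 and the other at 0.37. The CLK1 to CLK4 ratio was lower in both labelled libraries, with 1.88 and 3.18 in controls and 0.91 and 1.73 in labelled libraries (shift -1.21, pooled SD 0.77). That of LUC7L to LUC7L3 was higher in both (shift 0.86, pooled SD 0.46). The CLK1 to CLK2 ratio overlapped between groups (shift 0.26, pooled SD 0.24), as did CLK1 to CLK3, CLK2 to CLK3, RBM5 to RBM39 and OGT to MAT2A.

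**Figure D3:**
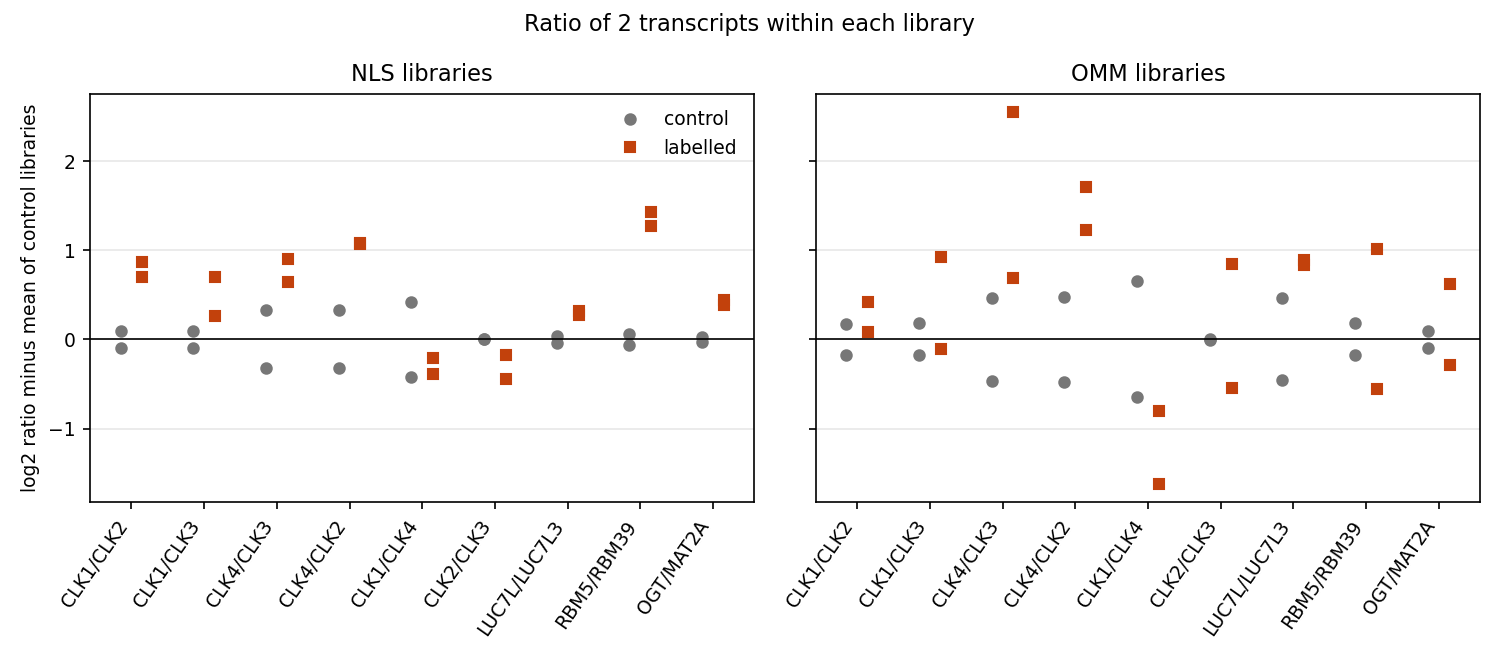
Log2 ratio of 2 transcripts within each library, per kilobase, minus the mean of the 2 control libraries of the same compartment; points are single libraries. At NLS the RBM5 to RBM39 ratio shifts by 1.35 and the CLK1 to CLK2 ratio by 0.79 in labelled libraries, while CLK1 to CLK4 overlaps. At OMM the CLK1 to CLK4 ratio is lower in both labelled libraries.

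Per kilobase of merged exons, the NLS controls ranked LUC7L3 (67.8 ± 0.805 CPM per kb, SD over 2 libraries) above MAT2A (60.1 ± 1.17), RBM39 (40.2 ± 0.126), OGT (27.6 ± 1.16) and CLK2 (24.3 ± 1.27). RBM5 (15.4 ± 0.916) and LUC7L (14.6 ± 0.742) followed and could not be told apart by their libraries. CLK1 (9.49 ± 1.42), CLK4 (2.60 ± 0.687) and CLK3 (1.79 ± 0.0890) were lowest. In labelled NLS libraries RBM5 was at 46.3 ± 2.55 CPM per kb, overlapping RBM39 at 47.8 ± 6.50, which in turn overlapped OGT at 47.9 ± 7.07. LUC7L3 and MAT2A also overlapped there, as did CLK1 and LUC7L. In both OMM groups MAT2A was highest, at 92.2 ± 3.26 in controls and 64.7 ± 1.03 CPM per kb in labelled libraries. CLK4 (1.86 ± 0.389) and CLK3 (2.34 ± 0.580) were lowest in the controls and overlapped. The order rests on the length used: by the principal coding transcript, an alternative chosen after seeing the data, RBM39 led both NLS groups (193 CPM per kb in controls) and CLK4 was lowest in all 4 groups, since the merged exons of CLK3 add up to 20443 bases against 1846 in its principal transcript.

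Of 17 other transcripts described with retained introns, 11 rose and 3 fell at NLS, with a median log2 fold change of 0.48. Of all genes tested there, 28.8% were called higher and 28.5% lower, and of protein-coding genes 19.4% and 39.8%. This list and those below were chosen with earlier results of these data known. CCNL1 and CCNL2, cyclins L that take part in splicing, rose by 1.50 ± 0.14 and 1.17 ± 0.10, and NKTR, a cyclophilin-related SR-type protein, by 1.50 ± 0.11. PABPN1, the nuclear poly(A)-binding protein, and the RNA helicase DDX5 fell with log2 fold changes of -0.65 ± 0.09 and -0.65 ± 0.11. OGA, which removes the sugar that OGT adds, rose by 0.45 ± 0.11. With library size alone 13 rose and 0 fell by edgeR. DESeq2 called 11 and 3. At OMM 16 of the 17 had a log2 fold change below 0 (median -0.44), against 50.1% of all tested genes. There 0 passed by edgeR and 2 were lower by DESeq2, which called 5.7% of genes lower. By edgeR the unadjusted p was under 0.05 for NXF1 (0.026) and PABPN1 (0.00487), both lower, against 4.62% of tested genes.

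For the lists that follow, the shares of protein-coding genes called at NLS were 19.4% higher and 39.8% lower. Of 14 SR protein transcripts, 2 rose and 8 fell at NLS (median -0.36). SRSF4 and SRSF11 rose by 0.75 ± 0.10 and 0.74 ± 0.11, while SRSF8 and SRSF2 fell with log2 fold changes of -1.34 ± 0.13 and -1.29 ± 0.09. Of 12 measured kinases related to the CLKs, 2 rose and 8 fell (median -0.36). The count that rose was 1 with DESeq2, without the filter on low counts, with the replicate block, and without control library 3, labelled library 1 or labelled library 3, and 3 without control library 1. DYRK1A rose by 0.67 ± 0.09 and DYRK1B by 0.55 ± 0.21, the latter at an edgeR adjusted p of 0.04996, whereas HIPK1 and DYRK3 fell with -1.17 ± 0.09 and -1.05 ± 0.13. SRPK1, the other main SR protein kinase, fell with -0.80 ± 0.10. Among 9 measured paralogs and partners, 2 rose and 4 fell (median -0.21). RBM6, next to RBM5, rose by 0.76 ± 0.09, while MAT2B, the regulatory partner of MAT2A, fell with -1.59 ± 0.13, LUC7L2 with -0.30 ± 0.09, RBM10 with -0.52 ± 0.11 and HCFC1 with -0.72 ± 0.10. METTL16, which acts on MAT2A mRNA, was at 0.02 ± 0.10. SR protein transcripts at OMM had 11 of 14 log2 fold changes below 0 (median -0.15), against 50.1% of all tested genes. Related kinases had 5 of 11 below 0 there (median 0.09), and paralogs and partners 5 of 9 (median -0.00). By edgeR 0 of these passed at OMM. DESeq2 called 2 SR protein transcripts lower there, 0 related kinases and 0 paralogs and partners, against 5.7% of genes.

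Library size alone, by its construction, adds about the same amount to every gene's log2 fold change at NLS. The sign of a list's median against 0 can therefore depend on the scaling. Library size alone raised the median of all tested genes from 0.14 to 0.66. The list medians became 1.19 for the 10 transcripts and 1.00 for the other retained-intron transcripts, both also above 0 with TMM. SR proteins turned from negative to 0.16 (5 higher, 4 lower), and related kinases to 0.16 (3 and 3). Paralogs and partners turned from negative to 0.31 (5 and 1).

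**Figure D4:**
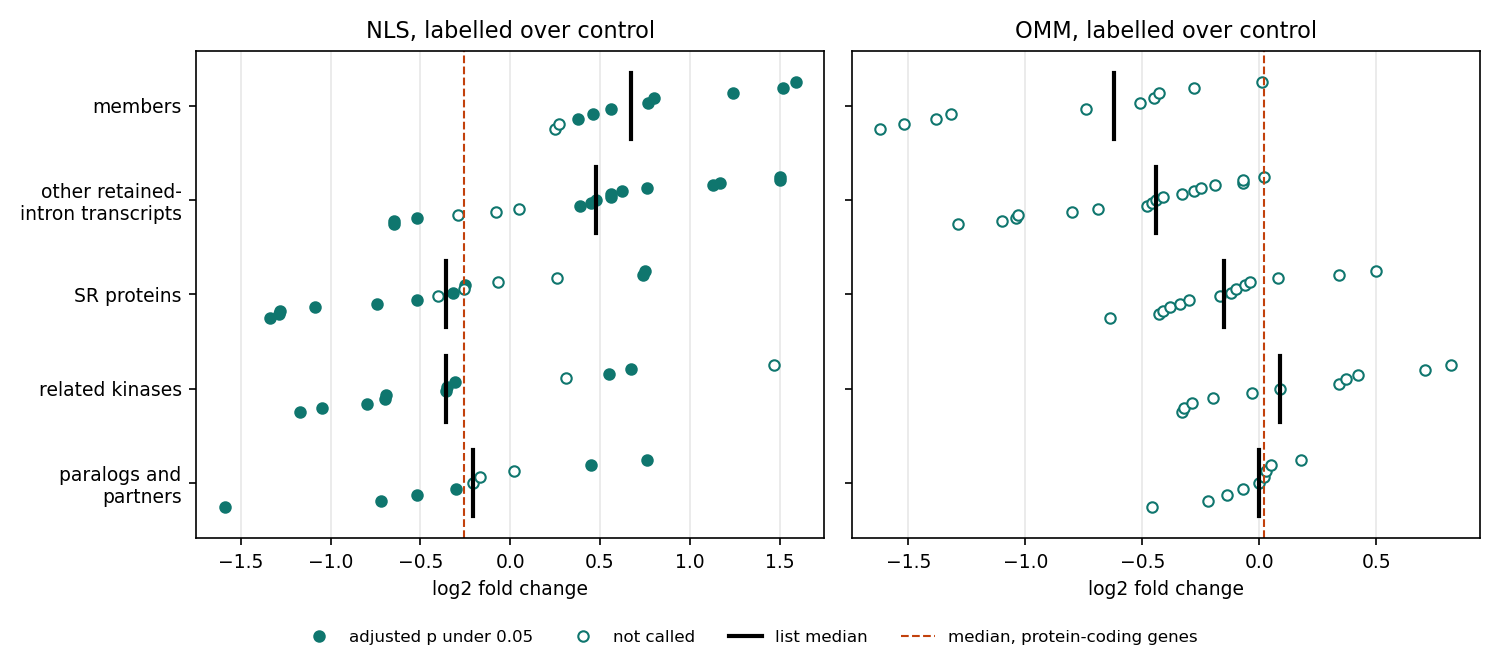
Log2 fold change of labelled over control for each gene of 5 lists at NLS (left) and OMM (right); filled points passed the edgeR test, black bars are list medians and the dashed line is the median of protein-coding genes. At NLS the medians are 0.67 and 0.48 for the 2 retained-intron lists and -0.36 for SR proteins and for related kinases.

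The share of merged exon bases annotated only in retained-intron transcripts differed widely among the 10. It is not the full intron share of a gene's countable length. CLK2, at 0%, has introns 4, 10 and 11 whole inside a transcript of another class. LUC7L, at 38.4%, has 0 introns held whole by a retained-intron transcript. Merged exon bases found only in retained-intron transcripts made up 54.4% in RBM39, 46.9% in CLK1, 42.5% in RBM5, 41.6% in OGT, 38.4% in LUC7L, 38.3% in CLK4, 17.8% in CLK3, 9.52% in MAT2A, 1.46% in LUC7L3 and 0% in CLK2. The median over protein-coding genes tested at NLS was 2.65%. The 6 genes with at least 38.3% spanned the whole range of nuclear log2 fold changes, from 0.25 for RBM39, which has the highest share, through 0.56 for LUC7L and 0.80 for OGT to 1.24 for CLK1, 1.52 for CLK4 and 1.59 for RBM5. CLK3, at 17.8%, was at 0.77, and the genes under 10% (MAT2A, LUC7L3, CLK2) were at 0.27 to 0.46. The counts are per gene, so intron reads could not be told from exon reads, and the annotation release used in the authors' counting is not given in the sources used here.

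**Figure D5:**
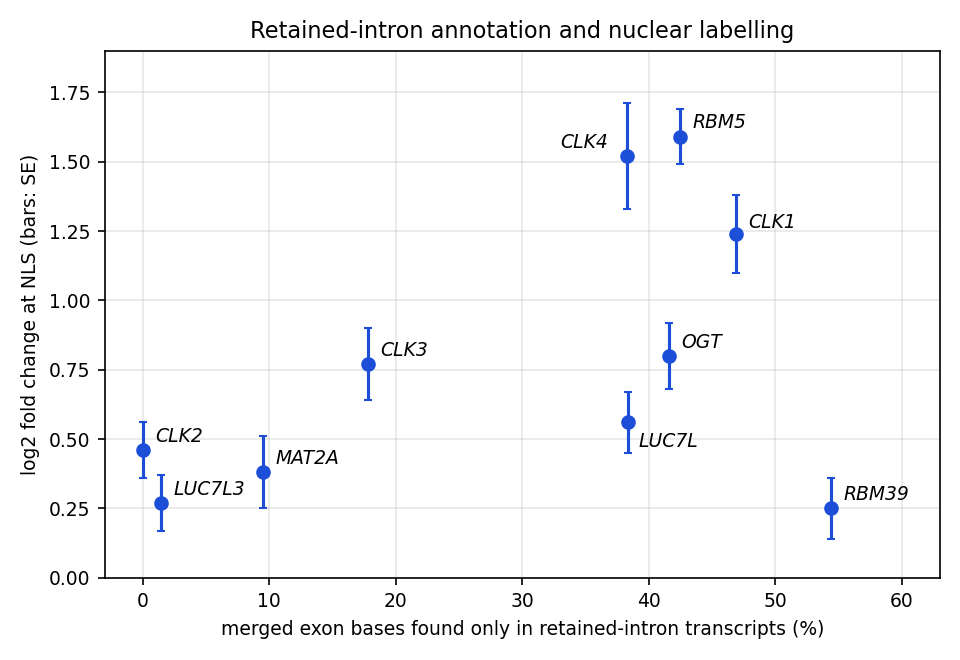
Share of merged exon bases annotated only in retained-intron transcripts (x axis, %) against the log2 fold change at NLS with its standard error (y axis) for the 10 genes. CLK1, CLK4 and RBM5 lie at upper right and RBM39 at lower right, at 54.4% and 0.25.

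By the fixed rule, the 3 genes whose levels ran most like CLK1 over the 8 libraries, after centring each compartment, were RBM14 (Pearson r = 0.996), NDUFAF6 (0.992) and DMPK (0.989), of 7988 genes compared. They were picked on the labelled and control libraries themselves, so their log2 fold changes only describe the choice. RBM14, a paraspeckle protein, was at 0.61 at NLS and -0.64 at OMM. NDUFAF6, a complex I assembly factor, was at 1.09 and -1.23, and DMPK, the myotonic dystrophy protein kinase, at 1.16 and -1.17. Of the 9 other transcripts described here, MAT2A was most like CLK1 (r = 0.909), at rank 84 of the 7988 genes. CLK2 (0.876, rank 133) and CLK3 (0.852, rank 168) followed. CLK4 (0.533, rank 808) and LUC7L3 (0.501, rank 889) were least so. These correlations share libraries, depth and the labelling contrast, and describe these 8 libraries only.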

How the data were processed

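The authors deposited raw read counts per gene, per the file headers; the submitters' processing notes name HTSeq, STAR, Trimmomatic, SAMtools, DESeq2 and bedtools, and hg38 and GRCh38.p13 as builds, with tool versions not given in the sources used here. The authors' table of comparisons holds a log2 fold change (labelled against control) and a p-value for each gene. Recomputed with DESeq2, 100% of those fold changes were matched to within 0.01, and their p-values matched its adjusted p to within 1% in 100% (NLS) and 99.99% (OMM) of cases. Columns were matched to groups by compartment and arm; their numbers (1 and 3 at NLS, 3 and 4 or 2 and 3 at OMM) name libraries here. Left out were 4 count columns and 2 comparison columns that no sample's labels match.

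Counts were tested with edgeR 4.0.16 (R 4.3.3), a robust quasi-likelihood F test, two-sided, with TMM factors (0.826 to 1.20 at NLS, 0.936 to 1.05 at OMM), filterByExpr at a minimum count of 10, and Benjamini-Hochberg adjustment over all tested genes at 0.05. NLS and OMM were fitted apart, and the interaction over all 8 libraries. The SE was taken as the absolute log2 fold change over the root of F. CPM are scaled by TMM. Ratios used a pseudocount of 0.5. The scripts were tested on simulated data. At NLS the edgeR test recovered 43 of 91 genes changed by a log2 of 1 and 71 of 95 changed by 2, with 10 false calls. At OMM it recovered 0 of 94 and 27 of 96, with 3 false calls. Gene models came from GENCODE 29, which held 58396 of the 60664 identifiers. All members and the 3 genes most like CLK1 (highest Pearson correlation of log2 CPM) were named; lists were named by their 2 highest and 2 lowest calls, with CCNL2, SRPK1 and NXF1 chosen after their values were seen; any paralog or partner could be named. Members and lists were chosen with earlier results of these data known. Alternatives were library size alone, RLE factors, DESeq2 1.42.0, no filter, a replicate block and leaving out each library.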

Additional observations from a re-analysis of the deposited data

Results flagged for a closer look

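The labelling effect differed between the nucleus and the outer mitochondrial membrane, by a test of the difference itself, for 5 of the 10 transcripts, where 1.41% of all tested genes had a larger effect at NLS. None of the 5 passed when any NLS library was left out, in fits that called at most 28 genes in that direction. The log2 difference, NLS minus OMM, was 2.54 for CLK1, 1.95 for CLK2, 2.36 for CLK3, 2.01 for RBM5 and 0.87 for MAT2A. For CLK1, CLK2, CLK3 and MAT2A both labelled libraries were above both controls at NLS and below both at OMM; for RBM5 the OMM groups overlapped. The compartment cannot be told apart from the library kit, the selection of RNA and the Trizol that only the OMM labels name.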

How the results depend on the processing

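At NLS the count of members called higher was 8 and stayed within 7 to 10 under every alternative run, with 0 lower in each; the fit with the column number as a replicate block gave 8. Equal column numbers did not deviate together across genes at NLS (r = -0.0486). With 2 libraries per arm this cannot settle whether the numbers pair the libraries, and at OMM the arms share only 1 number. At OMM the count of members called lower was 0, but 5 with DESeq2 and 2 without the filter on low counts, and 0 to 1 when each library was left out. The count with a different effect at NLS and OMM was 5, but 10 with DESeq2 and 0 to 7 when each library was left out; the 0 came from leaving out any NLS library, where 0 to 28 of all genes were called higher and 0 to 445 lower, and where the members' median difference was 1.48 to 1.74, against 1.55. The cause of the differences between tools was not tested. Among single members at OMM, CLK4 ran from -0.52 to 0.40 when each library was left out (-0.18 without control library 4, -0.52 without labelled library 2), and OGT from -0.77 to 0.10 (the latter without labelled library 2); no other member turned in sign under an alternative in any comparison. Over all genes, DESeq2 called 1000 higher and 873 lower at OMM, against 20 and 8 by edgeR, 48 and 16 with library size alone and 321 and 145 without the filter. At NLS library size alone gave 9122 higher and 3351 lower, against 5999 and 5945, and leaving out either of the NLS labelled libraries gave 3077 to 3196 genes higher. The difference between compartments was called for 326 genes higher and 1561 lower, against 2290 and 2030 with DESeq2, 372 and 626 with RLE factors and 676 and 1997 without the filter. Where an arm kept 1 library, it was assumed to vary like the other arm. Each member had at least 291 counts in every library.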

Other observations

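Over protein-coding genes, the median labelling effect was higher at NLS and lower at OMM with more annotated retained-intron transcripts. At NLS the median log2 fold change was -0.41 for 6242 genes with none, -0.21 for 4097 genes with 1 or 2, -0.13 for 2440 genes with 3 to 5 and 0.01 for 1077 genes with 6 or more. The share called higher by edgeR was 15%, 19.7%, 25% and 30.9% in the same order, and the share called lower was 42.4%, 38.2%, 38.4% and 33.1%, above the share called higher in every bin. At OMM the medians were 0.08, 0.04, -0.05 and -0.18. The share of merged exon bases annotated only in retained-intron transcripts was also set against the log2 fold change across genes, which are not independent replicates. The Spearman correlation was 0.103 at NLS (13856 genes) and -0.125 at OMM (12490 genes), both weak. These bins were chosen after seeing the data, and expression level and gene length were not adjusted for.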
